A study of Mus musculus with 6 samples.

Results

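The genes described here are 41 genes of DNA replication and nucleotide supply. They were chosen by name for their functions, with earlier results of these data known. They comprise 10 genes that load the replicative helicase, 6 that activate it, 8 of the polymerases and primase, 9 of the sliding clamp, its loader and the processing of strands, 5 of deoxynucleotide supply and 3 of chromatin assembly and DNA methylation behind the fork. Of these, 40 were measured among 22180 genes on the array. The exception was Rfc4, whose probe set also covers Eif4a2. A gene was represented by the probe set annotated to it alone, and where there were several by the one with the highest mean.

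Spleens came from 3 mice that overexpressed AIMP2-DX2 and from 3 control littermates, all aged 1 year, and each was hybridised to 1 Affymetrix array. AIMP2 holds together the complex of tRNA synthetases, and DX2 is one of its splice forms. The DX2 mice had the genotype CAG-rtTA; TRE DX2/+, in which the broadly active CAG promoter drives the doxycycline-dependent activator rtTA and a responsive element (TRE) drives DX2. The control mice had the genotype 0; TRE DX2 /+, with the DX2 transgene and no activator, and doxycycline pellets (6.25 mg per kg) were fed to all mice from 8 weeks of age. Since rtTA was present in the DX2 mice alone, an effect of DX2 and one of rtTA cannot be told apart. The labels call the samples of a group biological replicates. Values are RMA expression values on the log2 scale, and they are listed in the order of replicates 1, 2 and 3.

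Several properties of the arrays bear on the values. The transgene could not be checked apart from Eif2ak1, which shares the probe set of Aimp2: it averaged 6.42 ± 0.16 in DX2 and 6.16 ± 0.16 in control (SD, n = 3 each). The median over all genes was 5.42 to 5.46 on every array. Sex was read from Xist, the RNA of the inactive X chromosome, and Eif2s3y, a Y-linked gene, since the labels do not mention it. Controls 1 and 2 were female (Xist at 10.89 and 10.54) and the other 4 spleens male (3.89 to 4.29). As all DX2 spleens were male, an effect of sex and one of group can be told apart through control 3 alone. All 9 measured B cell markers had lower means in DX2, with the group ranges of their mean level at 7.98 to 8.77 in DX2 and 9.79 to 10.18 in control. Of the 9, 4 passed the test over all genes, where 62 of 22180 genes were called lower in DX2. The number of B cell markers that passed was 1 without DX2 1 and 2 with a robust prior. It was 0 without DX2 3, without any 1 control, with the replicate block, with a sex term or with centred arrays. Spic, the transcription factor of red pulp macrophages, read 9.67, 9.32 and 9.37 in the DX2 spleens, against 8.92, 8.76 and 9.28 in control spleens. A marker of the labelled tissue was thus present on every array. Of the pancreatic markers, Cpa1 read at most 4.33 and Prss2 at most 3.90, while Cela1 read 5.80 to 6.77.

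Replication proceeds in stages. In G1 the origin recognition complex (ORC), CDC6 and CDT1 load the ring of MCM2 to MCM7 onto DNA, and in S phase MCM10, CDC45 and the GINS complex turn that ring into the active helicase. Primase and DNA polymerases alpha, delta and epsilon then copy the strands, with PCNA as the clamp that keeps the polymerases on DNA, while ribonucleotide reductase and thymidylate synthesis supply the deoxynucleotides. Most of these genes are transcribed at the G1 to S boundary under E2F transcription factors. In the mouse spleen, dividing cells include red pulp erythroblasts, which persist in adult mice, and activated B cells.

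E2F factors are known to act through short promoter elements, so promoters are shown first. RefSeq promoter windows (GRCm38.p6, from 250 bases before the start of a gene to 50 after it) were given for 33 of the 40 genes, 39 windows in all. They were searched on both strands for 4 E2F-like words (the word TTGGCGC, the word TTCCCGC, the word TTGCCGC and the word TTCGCGC) and for CCAAT, the box bound by NF-Y. The letters TTGG of the first word are also part of a CCAAT box read on the other strand, and words may overlap. The gene of smallest p-value with a single window in each functional group is shown for positions -150 to 30 relative to its start, 5′ to 3′ on the gene's own strand, with both kinds of word in capitals.
Mcm3: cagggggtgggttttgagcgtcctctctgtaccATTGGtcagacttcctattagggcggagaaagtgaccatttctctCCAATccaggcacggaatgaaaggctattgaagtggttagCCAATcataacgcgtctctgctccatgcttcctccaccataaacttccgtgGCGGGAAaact
Mcm10: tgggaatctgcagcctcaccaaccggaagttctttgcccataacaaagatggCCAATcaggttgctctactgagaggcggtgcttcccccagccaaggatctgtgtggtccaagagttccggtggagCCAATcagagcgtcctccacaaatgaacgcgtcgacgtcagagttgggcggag
Prim1: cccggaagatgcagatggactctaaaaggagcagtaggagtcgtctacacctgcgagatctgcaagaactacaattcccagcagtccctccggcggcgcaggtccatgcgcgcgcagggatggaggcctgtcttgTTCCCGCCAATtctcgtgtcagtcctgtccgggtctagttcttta
Rfc3: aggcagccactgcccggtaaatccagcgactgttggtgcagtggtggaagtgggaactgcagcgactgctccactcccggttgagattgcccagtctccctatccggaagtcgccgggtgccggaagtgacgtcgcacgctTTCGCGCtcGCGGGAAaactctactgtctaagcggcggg
Tyms: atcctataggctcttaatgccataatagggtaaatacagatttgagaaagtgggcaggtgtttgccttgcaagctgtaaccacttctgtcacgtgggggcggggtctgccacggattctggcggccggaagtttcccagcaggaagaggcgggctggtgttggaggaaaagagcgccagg
Chaf1a: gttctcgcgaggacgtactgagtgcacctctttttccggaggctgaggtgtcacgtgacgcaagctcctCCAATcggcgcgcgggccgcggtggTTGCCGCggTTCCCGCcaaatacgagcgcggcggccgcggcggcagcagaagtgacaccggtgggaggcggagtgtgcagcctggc
They lie at chr1:20820283-20820462 (minus strand) for Mcm3, chr2:5012762-5012941 (minus strand) for Mcm10 and chr10:128015065-128015244 (plus strand) for Prim1. Those of Rfc3, Tyms and Chaf1a lie at chr5:151651179-151651358 (minus strand), chr5:30073596-30073775 (minus strand) and chr17:56040266-56040445 (plus strand). Mcm3, Prim1, Rfc3 and Chaf1a hold E2F-like words in the stretch shown. Mcm10 holds CCAAT boxes and none of the E2F-like words, and Tyms holds neither.

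An E2F-like word occurred in 24 of the 39 windows (61.5%), against 9.57% of all 32851 windows of the table and 12.1% of those of protein-coding genes. CCAAT occurred in 23 of the 39 (59.0%), against 37.4% of all windows. Median GC content was 58.3% in the windows of these genes and 52.7% in all windows, and among protein-coding windows of like GC content (52.17% to 65.33%) the shares were 14.2% for the E2F-like words and 40.1% for CCAAT. A match is a run of letters and does not show binding. The log2 difference between groups had a median of 0.71 over the 21 genes with an E2F-like word in a window and 0.53 over the 12 without one, and both sets spanned wide ranges (-0.07 to 1.12 and 0.25 to 0.80). These medians are descriptions, and no test was made of them.

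Genes of replication and nucleotide supply were higher in DX2 spleens almost throughout, and none passed the test over all genes. Of 40 genes 39 had a higher mean in DX2, against a background of 51.6% of all genes. Since earlier results of these data were known when the genes were chosen, this share and those below are descriptions. The median log2 difference, DX2 minus control, was 0.61 (1.52-fold), against 0.01 over all genes. None of the 40 reached an adjusted p under 0.05 in limma (Benjamini-Hochberg, 22180 genes), where 0.316% of all genes did in either direction and 0.0361% with DX2 higher. At an unadjusted p under 0.05, 32 of the 40 were higher in DX2 (80.0%, against 8.13% of all genes) and 0 were lower (7.82% of all genes were). In 27 of the 40 (67.5%, against 10.7% of all genes) the DX2 values lay entirely above the control values, and no gene of the 40 showed the opposite (11.2% of all genes did). At an adjusted p under 0.1 there was 1 gene, Chaf1a, against 0.604% of all genes. The smallest adjusted p was 0.0603, for Chaf1a, and the others lay between 0.107 and 0.879.

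**Figure D1:**
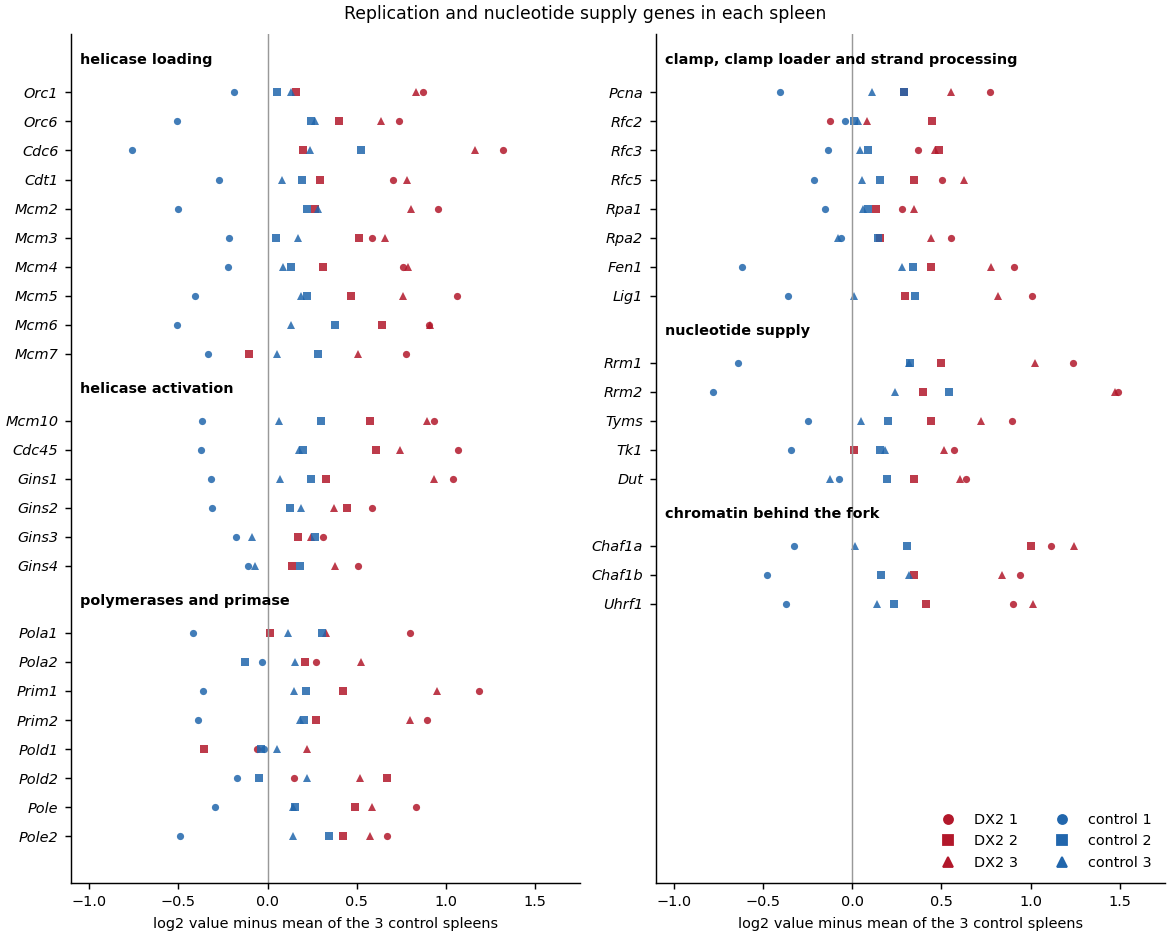
Each row is 1 of the 40 genes and each point 1 spleen, plotted as its log2 value minus the mean of the 3 control spleens (line at 0), with DX2 spleens in red, control spleens in blue and the replicate number given by the symbol. Control 1 was the lowest array for 35 genes, DX2 1 or DX2 3 was the highest for 37, and DX2 2 lay between them and the controls in most rows.

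Spleens of a group were far from equal. DX2 1 gave the highest value of the 6 arrays for 27 genes and DX2 3 for 10, whereas DX2 2 was the lowest DX2 array for 36 of 40. Control 1 gave the lowest value of all for 35 genes. Over all 22180 genes, DX2 1 was the highest array for 3889 and DX2 3 for 3147. Among them DX2 2 was the lowest DX2 array for 7292, and control 1 the lowest of all arrays for 3849. The mean log2 level of the 40 genes was 7.89, 7.48 and 7.83 in DX2 spleens, against 6.82, 7.35 and 7.26 in control spleens. Relative to the mean of controls 2 and 3, the median over the 40 genes was 0.57 for the mean of DX2 1 and DX2 3, 0.17 for DX2 2 and -0.50 for control 1. DX2 1 and DX2 3 both exceeded every control for 36 of the 40 genes, against 17.9% of all genes, and DX2 2 did so for 29, against 33.9% of all genes.

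The licensing genes, which load the helicase in G1, were all higher in DX2 (10 of 10, median 0.62). Of the 10, 8 had an unadjusted p under 0.05 (8.13% of all genes were higher at that threshold). In 7 the groups did not overlap (10.7% of all genes lay higher without overlap). These shares of all genes also apply to the counts of the functional groups that follow. Adjusted p of the licensing genes lay between 0.107 and 0.496. Orc1 encodes an ATP-binding subunit of the origin recognition complex. It read 6.38, 5.67 and 6.34 in the DX2 spleens, against 5.33, 5.57 and 5.64 in the control spleens, a difference of 0.62 (SE 0.21). For Orc6, the smallest subunit of ORC, the values were 7.99, 7.66 and 7.89 in DX2 and 6.75, 7.50 and 7.52 in control. In both genes the groups did not overlap, and DX2 2 was the DX2 spleen nearest to the controls. The loading factors CDC6 and CDT1 differed in their spread. Cdt1 read 7.49, 7.08 and 7.57 in the DX2 spleens, against 6.52, 6.98 and 6.87 in the control spleens, with no overlap and a difference of 0.59 (SE 0.18). Cdc6 had a wider spread and differed by 0.89 (SE 0.39), and DX2 2 (7.07) lay below controls 2 (7.40) and 3 (7.11).

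Among the 6 subunits of the MCM ring, which form the core of the replicative helicase, the differences ranged from 0.39 to 0.82. Mcm3 had the smallest p of the licensing genes, with 8.20, 8.13 and 8.27 in the DX2 spleens, against 7.40, 7.66 and 7.78 in the control spleens (difference 0.59, SE 0.13, adjusted p = 0.107). Every DX2 spleen exceeded every control spleen by at least 0.34 in that gene. Mcm6 read 9.20, 8.94 and 9.21 in the DX2 spleens, against 7.79, 8.68 and 8.43 in the control spleens, and Mcm4 read 9.14, 8.69 and 9.16 in the DX2 spleens, against 8.16, 8.51 and 8.46 in the control spleens. Their differences of 0.82 (SE 0.22) and 0.62 (SE 0.17) had adjusted p of 0.15 and 0.147, again without overlap. Mcm5 read 8.92, 8.33 and 8.62 in the DX2 spleens, against 7.45, 8.08 and 8.04 in the control spleens and did not overlap either. The remaining subunits overlapped through DX2 2. Mcm2 read 8.80, 8.11 and 8.64 in the DX2 spleens, against 7.34, 8.06 and 8.12 in the control spleens, where DX2 2 lay among the controls, and Mcm7 read 8.79, 7.91 and 8.53 in the DX2 spleens, against 7.68, 8.30 and 8.07 in the control spleens, where DX2 2 lay below controls 2 and 3. Mcm7 had the smallest difference of the ring, 0.39 (SE 0.25).

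All 6 helicase activation genes were higher in DX2 (median 0.62), 5 of them at an unadjusted p under 0.05. Mcm10, which helps to open the loaded ring, read 7.07, 6.71 and 7.03 in the DX2 spleens, against 5.77, 6.44 and 6.20 in the control spleens, and Cdc45, a subunit of the active helicase, read 7.25, 6.79 and 6.93 in the DX2 spleens, against 5.81, 6.39 and 6.36 in the control spleens. Both groups of values were separate, with differences of 0.80 (SE 0.19) and 0.80 (SE 0.19) and adjusted p of 0.116 and 0.118. The GINS complex, which binds CDC45 and the MCM ring, was uneven. Gins1 read 6.67, 5.96 and 6.57 in the DX2 spleens, against 5.32, 5.87 and 5.70 in the control spleens and Gins2 6.67, 6.54 and 6.46 in the DX2 spleens, against 5.78, 6.21 and 6.28 in the control spleens, neither with overlap. Gins3 (7.29, 7.15 and 7.22 in the DX2 spleens, against 6.80, 7.24 and 6.89 in the control spleens) and Gins4 (8.04, 7.67 and 7.91 in the DX2 spleens, against 7.42, 7.72 and 7.46 in the control spleens) overlapped through control 2. The differences were 0.77, 0.47, 0.24 and 0.34 for Gins1 to Gins4, with SE between 0.14 and 0.22.

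Polymerase genes were the least uniform set, with 7 of 8 higher in DX2 (median 0.50) and 6 at an unadjusted p under 0.05. Pole, the catalytic subunit of the leading-strand polymerase epsilon, read 7.42, 7.08 and 7.18 in the DX2 spleens, against 6.30, 6.74 and 6.74 in the control spleens (difference 0.63, SE 0.16, adjusted p = 0.133). A second, dim probe set of Pole went the other way (difference -0.40), so its direction rests on the probe set used. Prim1, the catalytic subunit of primase, read 8.26, 7.50 and 8.02 in the DX2 spleens, against 6.72, 7.29 and 7.22 in the control spleens, and Prim2, its large subunit, read 8.84, 8.21 and 8.74 in the DX2 spleens, against 7.56, 8.15 and 8.13 in the control spleens. Both were without overlap, at differences of 0.85 (SE 0.23) and 0.65 (SE 0.22). The other 2 subunits of the polymerase alpha-primase complex had smaller differences, 0.38 (SE 0.25) for Pola1 and 0.33 (SE 0.13) for Pola2, and Pole2, the second subunit of polymerase epsilon, differed by 0.56 (SE 0.21).

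Pold1, the catalytic subunit of the lagging-strand polymerase delta, was the single gene with a lower mean in DX2. It read 7.24, 6.95 and 7.52 in the DX2 spleens, against 7.28, 7.26 and 7.36 in the control spleens, a difference of -0.07 (SE 0.16) whose 95% interval ran from -0.43 to 0.30 (limma), and the sign turned (0.026) when arrays were centred on their medians, with array weights (0.068) and without DX2 2 (0.080). DX2 2 was the lowest and DX2 3 the highest of all 6 arrays, so the DX2 spleens spanned the controls. Pold2, its accessory subunit, differed by 0.45 (SE 0.17) and was highest in DX2 2 (7.68), unlike most of the 40 genes. These values do not show that Pold1 was equal between groups, since its interval reaches 0.30.

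The clamp and strand processing genes were higher in DX2 in 8 of 8 cases, by a median of 0.47, with 6 at an unadjusted p under 0.05. PCNA encircles DNA behind each polymerase and is widely used as a marker of cycling cells. Pcna, given for that reason, read 10.70, 10.22 and 10.48 in the DX2 spleens, against 9.53, 10.22 and 10.04 in the control spleens, where DX2 2 and control 2 were level. Its difference was 0.54 (SE 0.21). Of the clamp loader genes, Rfc3 read 6.85, 6.97 and 6.94 in the DX2 spleens, against 6.35, 6.57 and 6.52 in the control spleens (difference 0.44, SE 0.11) and Rfc5 7.07, 6.91 and 7.19 in the DX2 spleens, against 6.36, 6.72 and 6.62 in the control spleens (difference 0.49, SE 0.14), with adjusted p of 0.127 and 0.153. In Rfc3 the DX2 spleens were within 0.12 of each other, DX2 2 being the highest. Rfc2 read 7.67, 8.24 and 7.88 in the DX2 spleens, against 7.76, 7.81 and 7.83 in the control spleens, with DX2 1 the lowest of all arrays, and its difference of 0.13 (SE 0.15) was -0.022 without DX2 2.

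Lagging strands are finished by a nuclease and a ligase. Lig1, the ligase that seals Okazaki fragments, read 8.02, 7.31 and 7.83 in the DX2 spleens, against 6.66, 7.36 and 7.02 in the control spleens, a difference of 0.71 (SE 0.24) with DX2 2 just below control 2. Fen1, the nuclease that trims their flaps, differed by 0.71 (SE 0.26) without overlap, and its second probe set by 0.14. The single-strand binding genes Rpa1 and Rpa2 differed by 0.25 (SE 0.12) and 0.38 (SE 0.14), both without overlap. Adjusted p over the 8 genes lay between 0.127 and 0.725.

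Deoxynucleotide supply had a median difference of 0.69, with 5 of 5 genes higher in DX2 and 4 at an unadjusted p under 0.05. Tyms, which makes thymidylate from dUMP, read 7.64, 7.19 and 7.47 in the DX2 spleens, against 6.50, 6.95 and 6.80 in the control spleens (difference 0.69, SE 0.17, adjusted p = 0.118). Dut, which removes dUTP and yields dUMP, read 7.69, 7.40 and 7.66 in the DX2 spleens, against 6.98, 7.25 and 6.93 in the control spleens (difference 0.53, SE 0.14). Both were without overlap. Rrm1, the large subunit of ribonucleotide reductase, read 10.13, 9.39 and 9.92 in the DX2 spleens, against 8.25, 9.22 and 9.21 in the control spleens. Its groups were separate too, and the difference was 0.92 (SE 0.30). Rrm2, the small subunit made in S phase, had nearly the largest difference of the 40 genes, 1.12 (SE 0.41), and also the largest SE. It read 8.77, 7.68 and 8.75 in the DX2 spleens, against 6.50, 7.82 and 7.52 in the control spleens, so that DX2 2 lay below control 2 while DX2 1 and DX2 3 stood 0.93 or more above every control. Tk1, the salvage kinase for thymidine, differed by 0.37 (SE 0.20) with overlap.

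The 3 genes that act on chromatin behind the fork had the highest median difference of the 6 groups, 0.78, and none overlapped. Chaf1a, the large subunit of the histone chaperone CAF-1, read 6.66, 6.55 and 6.79 in the DX2 spleens, against 5.22, 5.86 and 5.56 in the control spleens. The DX2 spleens lay within 0.24 of each other and 0.70 or more above every control, a difference of 1.12 (SE 0.17) or 2.17-fold (adjusted p = 0.0603). DX2 2 stood above every control in this gene and below control 2 in Rrm2. Chaf1a passed at 0.0459 when the 40% dimmest genes were left out (0.21% of genes passed with DX2 higher), at 0.0480 after a second quantile normalization (0.0902%) and at 0.0251 with array weights (0.987%). Over all alternatives its adjusted p ran up to 0.671, in the male spleens. Chaf1b, the middle subunit of CAF-1, read 7.54, 6.95 and 7.44 in the DX2 spleens, against 6.13, 6.76 and 6.92 in the control spleens, a difference of 0.71 (SE 0.24). Uhrf1, which reads hemimethylated DNA and recruits the maintenance methyltransferase DNMT1, read 7.73, 7.24 and 7.84 in the DX2 spleens, against 6.45, 7.06 and 6.97 in the control spleens, a difference of 0.78 (SE 0.21).

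**Figure D2:**
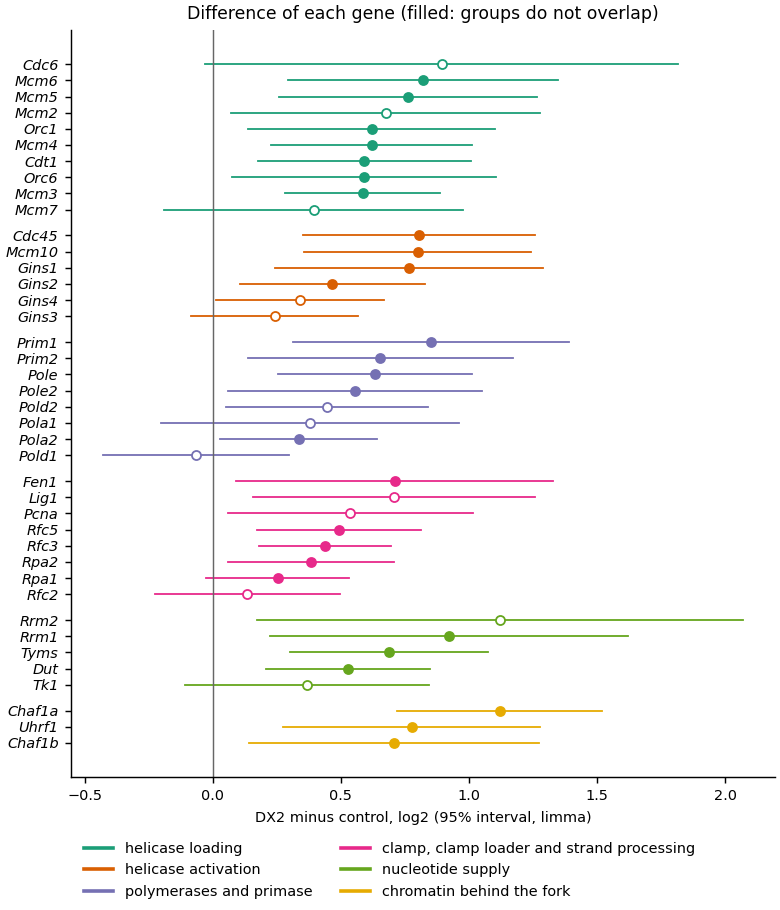
Points give the difference DX2 minus control on the log2 scale for each of 40 genes and bars its 95% interval from limma, coloured by functional group; filled points mark the 27 genes whose groups do not overlap. All points but that of Pold1 lie above 0, and the widest interval is that of Rrm2.

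The median difference was above 0 in every set of arrays tried, and the number of genes at an unadjusted p under 0.05 varied between sets. With each array left out in turn, the median difference over the 40 genes stayed between 0.46 (without control 1) and 0.72 (without DX2 2), and 39 genes were higher in each case, the lower one being Rfc2 without DX2 2 and Pold1 otherwise. The count at an unadjusted p under 0.05 was 18 of 40 without control 1 (against 5.48% of all genes), 18 without DX2 3 (against 5.91%), 19 without DX2 1 (against 8.42%) and 35 without DX2 2 (against 9.62%). Without DX2 2, Orc1 and Chaf1a passed over all genes (adjusted p = 0.0444 each), where 0.893% of all genes were called higher. None of the 40 passed without any other array, where the share of genes called higher was 0.0135% without DX2 1, 0.018% without control 3 and 0.00451% in the 3 remaining fits. With the replicate number as a block it was 0.00451% too, and 23 of 40 had an unadjusted p under 0.05 (against 6.64%). In the 4 male spleens, 3 DX2 against control 3 alone, the median was 0.45 and every DX2 spleen exceeded control 3 for 32 genes (80.0%, against 28.9% of all genes). There 6 of 40 had an unadjusted p under 0.05 (against 3.06%), a fit that lends control 3 the spread of the DX2 group, and with a sex term 4 of 40 had (against 3.76%).

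**Figure D3:**
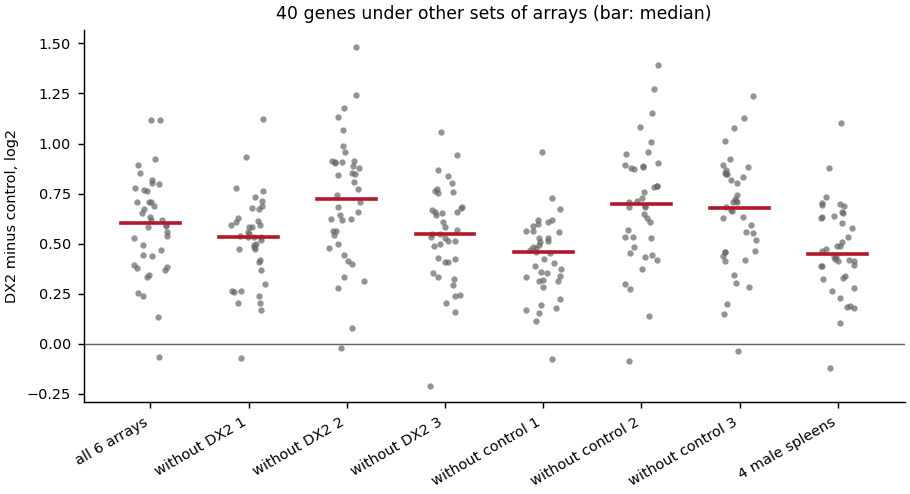
Each grey point is the difference DX2 minus control (log2) of 1 of the 40 genes, and the red bar is their median, for all 6 arrays, with 1 array left out, and in the 4 male spleens (3 DX2, 1 control). Medians lie between 0.45 and 0.72, and no more than 1 gene lies below 0 in any column.

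Mitosis and erythroid genes shared part of the order of the arrays. Mitosis genes were higher in DX2 in 11 of 11 cases (median 1.09), with mean log2 levels of 8.83, 8.00 and 8.70 in DX2 spleens, against 6.76, 7.83 and 7.65 in control spleens. Of 20 listed erythroid markers 14 were measured. Probe sets shared between globin genes were left out. They differed by 0.54, 0.25 and 0.85 for the beta globin genes (Hbb) and by 0.02 and -0.11 for the alpha globin genes (Hba). One shared by Alas2 and Apex2 differed by 0.76. The 14 measured erythroid markers were all higher in DX2 (median 1.29, none passing the test over all genes). That median was 0.65 without control 1, 0.76 without DX2 1 and 2.05 without DX2 2, where 1 marker passed, and 0.73 in the male spleens. Their mean level was 9.85, 7.45 and 9.52 in DX2, against 6.47, 8.33 and 8.22 in control. Klf1, the erythroid transcription factor, read 9.18, 7.16 and 9.02 in the DX2 spleens, against 5.18, 7.35 and 7.32 in the control spleens. Both lists shared with the replication genes a high DX2 1 and DX2 3 and a low control 1. The lists separated in DX2 2, where no erythroid marker of 14 exceeded every control and the median relative to the mean of controls 2 and 3 was -0.89, while 29 of 40 replication genes and 33.9% of all genes exceeded every control there. In bulk tissue, fewer cells of a type and less RNA per cell cannot be told apart, and the part of erythroid cells in the differences was not tested.

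Other marker lists varied in their order of the arrays. The erythroid progenitor and stem list was higher in DX2 in 7 of 8 genes. Its mean levels were 7.49, 6.72 and 7.43 in DX2 and 6.44, 6.65 and 6.65 in control. In 4 of these 8 genes DX2 2 exceeded every control, against 33.9% of all genes. Neutrophil precursor markers were high in DX2 1 alone (mean level 9.17, against 7.06 to 7.71 on the other 5 arrays), and megakaryocyte markers likewise (9.26, against 7.06 to 7.72). Germinal centre B cell markers include the B cell regulator Bcl6. Their mean levels were 6.29 to 6.36 in DX2 and 6.38 to 6.78 in control, and their median difference of -0.05 was 0.04 when arrays were centred. Of the 6 measured, 3 were higher and 3 lower, the largest difference being -1.15 (SE 0.40) for the dim Rgs13 (3.48 to 5.58). Plasma cell markers had mean levels of 7.68, 8.08 and 7.77 in DX2, against 7.86, 8.14 and 8.04 in control. T cell markers were low in DX2 1 alone, with mean levels of 6.62, 8.12 and 7.94 in DX2, against 8.00, 7.74 and 8.00 in control, and their median difference of -0.38 was 0.10 without DX2 1. Endothelial markers had a median difference of 0.28, which became 0.084 with DX2 1 left out and turned to -0.095 among the male spleens. Red pulp macrophage markers had mean levels of 9.42, 9.23 and 9.23 in DX2, against 8.83, 8.63 and 8.69 in control. Of the 10, 8 were higher and 2 lower (9 and 1 when arrays were centred). Differences were 0.99 to 1.35 for Cd5l, C1qa, C1qb and C1qc, and -0.33 for Slc40a1 and -0.03 for Hmox1. Cd5l alone passed the test over all genes (limma, adjusted p = 0.0422), where 0.0361% did with DX2 higher. No macrophage marker passed without DX2 1, without DX2 3 or without any 1 control. None did with the replicate block, a sex term or centred arrays either. The number was 3 without DX2 2 (0.893% of all genes were called higher) and 3 with array weights (0.987%). No marker was listed at 0, and the part of these cells was not tested either.

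**Figure D4:**
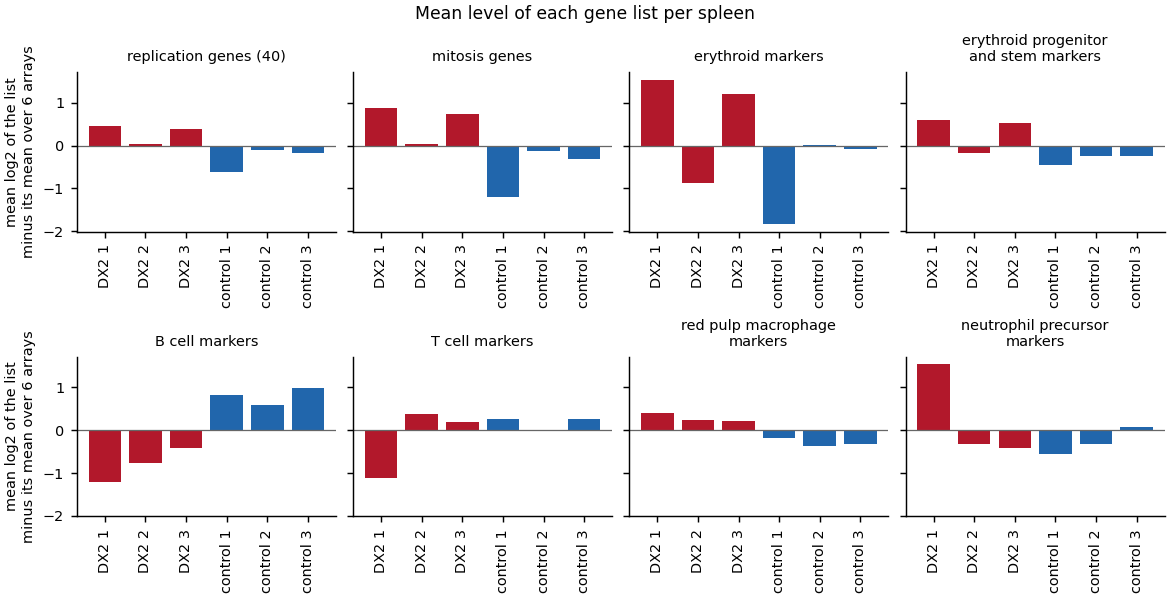
Bars give the mean log2 level of a gene list in each spleen minus the list's mean over the 6 arrays, with DX2 spleens in red and control spleens in blue. Replication and mitosis genes put DX2 2 above controls 2 and 3, while erythroid markers put it below both.

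Other genes of the pathway were mostly higher in DX2 too. Of 63 measured genes 52 were higher and 11 lower (55 and 8 when arrays were centred on their medians), with a median difference of 0.28 against 0.61 for the 40 genes above. At an unadjusted p under 0.05, 24 were higher (38.1%, against 8.13% of all genes) and 4 lower (against 7.82% of all genes), and none passed over all genes. The 24 became 12 without control 1 or without DX2 3. Relative to the mean of controls 2 and 3, the median over the 63 genes was 0.26 for the mean of DX2 1 and DX2 3. It was 0.03 for DX2 2 and -0.22 for control 1. DX2 2 exceeded every control for 30 of the 63, against 33.9% of all genes. The difference between these genes and the 40 was not tested.

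Licensing partners went both ways. Mcm8, a relative of the MCM ring that acts in recombination repair, read 6.24, 6.27 and 6.14 in the DX2 spleens, against 5.63, 5.70 and 5.71 in the control spleens (difference 0.54, SE 0.10, adjusted p = 0.0817). Mcm9, its binding partner, was lower, with 6.06, 5.80 and 6.09 in the DX2 spleens, against 6.33, 6.33 and 6.44 in the control spleens (difference -0.38, SE 0.12, adjusted p = 0.189). Neither overlapped between groups. Ticrr (Treslin), which brings CDC45 to origins, differed by 1.13 (SE 0.23), and Gmnn, the inhibitor of CDT1, by 0.84 (SE 0.19). Of the ORC subunits outside the 40, Orc2 differed by 0.56 and Orc5 by 0.19, while Orc3 (-0.16) and Orc4 (-0.19) had lower means in DX2. Donson, a replication fork protein, differed by -0.21 (SE 0.12).

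At the fork, Dtl, the adaptor that targets CDT1 for destruction in S phase, differed by 0.96 (SE 0.21), Pclaf, the PCNA-associated factor, by 0.62 (SE 0.15), and the topoisomerase Top2a by 1.00 (SE 0.25). Pold4, the smallest subunit of polymerase delta, was lower in all 3 DX2 spleens, at 7.55, 8.09 and 7.89 in the DX2 spleens, against 8.36, 8.24 and 8.29 in the control spleens (difference -0.45, SE 0.15, adjusted p = 0.215). Together with Pold1 (-0.07), Pold2 (0.45) and Pold3 (0.05), the polymerase delta subunits had a median difference of -0.01, and those of polymerase epsilon one of 0.56. Rfc1, the large loader subunit, differed by -0.12 and Chtf8, of an alternative clamp loader, by -0.03.

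Nucleotide genes included lower ones. Rrm2b, the small reductase subunit induced by p53 and used outside S phase, read 6.73, 7.11 and 7.10 in the DX2 spleens, against 7.46, 7.26 and 7.55 in the control spleens (difference -0.45, SE 0.15, adjusted p = 0.207), against a difference of 1.12 for Rrm2. Tk2, the mitochondrial thymidine kinase, differed by -0.55 (SE 0.19), against 0.37 for the cytosolic Tk1. The genes of dCMP deamination (Dctd), pyrimidine synthesis (Umps) and guanine nucleotide synthesis (Impdh1) differed by 0.53 (SE 0.14), 0.43 (SE 0.12) and 0.41 (SE 0.12). Samhd1, which degrades deoxynucleotides, differed by -0.04 (SE 0.25). The chromatin genes were higher in 8 of 8, led by the histone chaperone Asf1b (1.03, SE 0.22), with Dnmt1, the maintenance methyltransferase, at 0.39 (SE 0.14) and Tonsl, a reader of new histones, at 0.25 (SE 0.11).

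**Figure D5:**
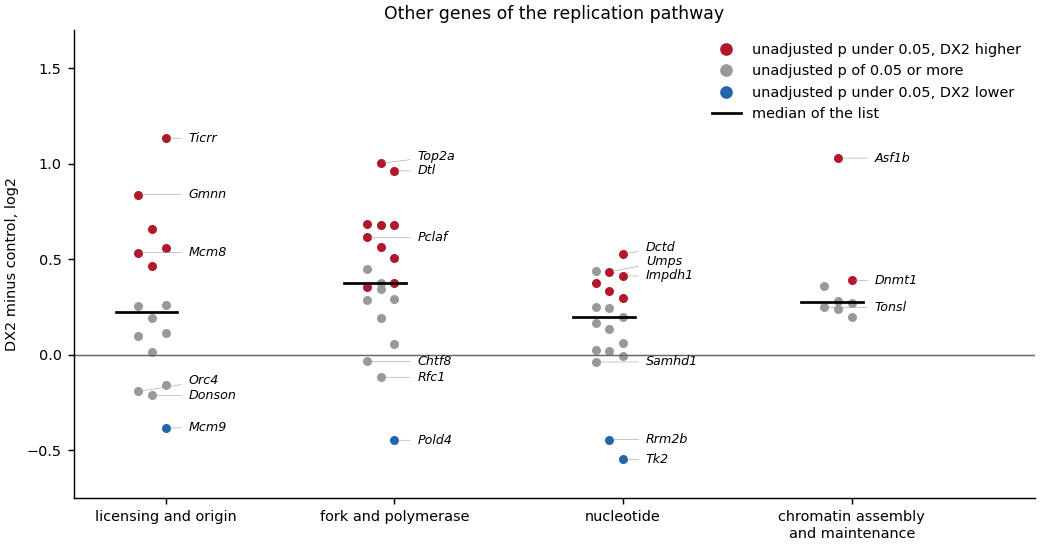
Points give the difference DX2 minus control (log2) of 63 other pathway genes in 4 lists, red or blue where the unadjusted p was under 0.05, and black bars give the median of each list. Red points number 24 and blue points 4, the blue ones being Mcm9, Pold4, Rrm2b and Tk2.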

How the data were processed

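Gene expression was measured with 1 Affymetrix array per spleen (3 DX2, 3 control). The log2 values are those the authors deposited as 1 table of 41345 probe sets. They were made with RMA, per the submitters' processing notes, with no version stated there. The log2 scale was inferred from their range (0.771 to 13.3). RMA compresses large differences, and no detection calls were used.

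By the supplied platform annotation 23521 probe sets had 1 gene symbol, 1814 several and 16010 none. RefSeq (GRCm38.p6) held 23328 of the first kind by Entrez number. Each of 22180 genes was represented by its probe set of highest mean. All 40 measured replication genes lay above the 40% dimmest genes.

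Groups were taken from sample titles. DX2 was compared with control by limma 3.58.1 (R 4.3.3; lmFit, eBayes, no covariate, two-sided), and p-values were adjusted by Benjamini-Hochberg over all genes (threshold 0.05). The procedure was tested on simulated data. Genes with values for every array are, in each functional group, the 3 of smallest unadjusted p, any gene against its group's direction and the subunits of complexes described whole. From other pathway lists up to 3 genes a direction are named. Any other gene named was chosen after its values were seen. The genes and lists were chosen with earlier results of these data known.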

Additional observations from a re-analysis of the deposited data

How the results depend on the processing

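The median difference of the 40 genes kept its direction under every alternative run and lay between 0.45 (sex term, male spleens) and 0.72 (without DX2 2). The number of the 40 that passed over all genes was 1 with the 40% dimmest genes left out, with array weights, after a second quantile normalization and at an adjusted p under 0.1, each time Chaf1a, and 0 to 2 with an array left out. The number higher at an unadjusted p under 0.05 was 18 to 35 with an array left out, against 32. It was 4 with a sex term and 6 in the male spleens. For the other pathway genes these counts were 12 to 30, 7 and 8, against 24. With a sex term and in the male spleens, the group difference rests on control 3 alone. Why the counts fell there was not tested. Of single genes, Pold1 turned sign with array weights (0.068), with centred arrays (0.026) and without DX2 2 (0.080, range -0.21 to 0.080 over the arrays left out), and Rfc2 without DX2 2 (-0.022, range -0.022 to 0.26). The cause was not tested. With the replicate number as a block, 0 of the 40 passed and 23 had an unadjusted p under 0.05. Same-numbered spleens did not deviate together (correlations of -0.32, -0.14 and 0.07 across genes for numbers 1, 2 and 3). With 3 spleens a group, these correlations cannot decide whether the numbers pair the samples. With 3 arrays a group, the number of arrays limits every value.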

Other observations

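The probe set shared by Rfc4, a subunit of the clamp loader, and Eif4a2, an RNA helicase of translation, was left out of every count above because its signal cannot be assigned to either gene. It read 8.04, 7.75 and 8.24 in the DX2 spleens, against 6.70, 7.42 and 7.49 in the control spleens, a difference of 0.81. The groups did not overlap on it.

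Second probe sets existed for 5 of the 40 genes. Those of Dut, Fen1, Rpa1 and Rrm2 had the direction of the probe set used, at differences of 0.42, 0.14, 0.31 and 0.37, and that of Pole had the opposite direction, with 4.13, 3.62 and 4.14 in the DX2 spleens, against 4.44, 4.35 and 4.30 in the control spleens. Each of the 5 had the lower mean of its pair.

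Cell cycle genes outside S phase held a like order of arrays. Bub1, a spindle checkpoint kinase, read 7.72, 7.37 and 7.65 in the DX2 spleens, against 5.70, 6.79 and 6.63 in the control spleens (difference 1.20, SE 0.28), and Aurkb, the kinase of the chromosomal passenger complex, read 7.68, 7.32 and 7.74 in the DX2 spleens, against 6.12, 6.78 and 6.68 in the control spleens (difference 1.06, SE 0.20). Both kept DX2 2 above every control, as 8 of 11 mitosis genes and 33.9% of all genes did.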
